A study of Homo sapiens with 12 samples.

Results

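Integrins, syndecans and glypicans are the main classes of cell surface receptors and proteoglycans that hold cells to the extracellular matrix. They were taken as every gene whose symbol names an integrin alpha subunit, an integrin beta subunit, a syndecan or a glypican, which gave 36 of the 35940 gene symbols in the table. The 36 genes are 18 integrin alpha subunits, 8 integrin beta subunits, 4 syndecans and 6 glypicans. Of these, 34 passed the filter on low counts and were tested, and ITGAD and ITGB6 did not pass it.

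RNA was sequenced from ESI017, a human embryonic stem cell line whose SOX2 gene carries an mCitrine reporter, grown as colonies on micropatterned glass, where cells attach only to printed areas. SOX2-negative cells and SOX2-positive cells were sorted from colonies that had received FGF8 at 200 ng/ml together with WNT3A at 100, 300 or 1000 ng/ml for 3 days in N2B27, a serum-free medium. Control colonies were kept in N2B27 alone for the same 3 days. There were 12 libraries, with 2 for each gate at 100 and at 1000 ng/ml, 1 for each gate at 300 ng/ml and 2 for control. Every library comes from the same reporter line, the labels give no gate for the control libraries, and both gates of a dose come from the same colonies. Whether control cells passed through the sorter is not given in the sources used here, so treatment and sorting cannot be told apart in a comparison with control. The second replicate was a biological repeat, so the p-values below measure the spread between repeats of 1 line.

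An integrin is a pair of 1 alpha and 1 beta subunit. The alpha subunit largely sets the ligand: some bind laminins of the basement membrane, some bind collagens, some bind the RGD tripeptide of fibronectin and vitronectin, and some are used by leukocytes. ITGB1 pairs with most of the alpha subunits, and inside the cell talins and kindlins bind the beta tails and link them to actin. Syndecans span the membrane and glypicans are held in it by a lipid anchor. Both carry heparan sulfate chains, which bind WNT and FGF ligands as well as matrix proteins. In the embryo, cells that leave the epithelial epiblast at the primitive streak are known to change their adhesion from a laminin-rich basement membrane towards a fibronectin matrix.

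The RefSeq promoter table (GRCh38.p14) matched 25 of the 36 genes. The 250 bases upstream of the RefSeq start are shown for 4 of the genes called between the gates, 3 higher and 1 lower, as examples in which the window lies almost wholly outside the annotated gene. ITGA11 at chr15:68432164-68432413, minus strand, GPC6 at chr13:93226557-93226806, plus strand, and SDC3 at chr1:30908759-30909008, minus strand, were higher in SOX2-negative cells. ITGA2 at chr5:52989102-52989351, plus strand, was lower. Each is written 5′ to 3′ on the strand of its gene, and capitals mark GGGCGG (the GC box), TATAAA (the TATA box) and CTTTGA (the core of TCF/LEF sites, which read WNT signalling) on either strand, where neighbouring matches may overlap.
ITGA11: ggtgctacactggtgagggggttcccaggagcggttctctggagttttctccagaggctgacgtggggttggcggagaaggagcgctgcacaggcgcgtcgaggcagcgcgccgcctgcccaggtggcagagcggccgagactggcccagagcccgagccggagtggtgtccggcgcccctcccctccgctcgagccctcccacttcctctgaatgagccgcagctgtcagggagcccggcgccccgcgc
GPC6: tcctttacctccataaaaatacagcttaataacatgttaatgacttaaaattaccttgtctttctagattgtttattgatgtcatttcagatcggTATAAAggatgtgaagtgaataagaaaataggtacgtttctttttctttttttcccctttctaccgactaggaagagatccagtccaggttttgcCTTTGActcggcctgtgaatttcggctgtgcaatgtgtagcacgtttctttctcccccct
SDC3: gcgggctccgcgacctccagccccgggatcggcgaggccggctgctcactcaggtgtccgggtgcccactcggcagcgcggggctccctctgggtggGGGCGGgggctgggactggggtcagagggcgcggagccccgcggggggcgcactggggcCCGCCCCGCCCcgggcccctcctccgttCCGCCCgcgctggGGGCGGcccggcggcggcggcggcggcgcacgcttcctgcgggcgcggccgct
ITGA2: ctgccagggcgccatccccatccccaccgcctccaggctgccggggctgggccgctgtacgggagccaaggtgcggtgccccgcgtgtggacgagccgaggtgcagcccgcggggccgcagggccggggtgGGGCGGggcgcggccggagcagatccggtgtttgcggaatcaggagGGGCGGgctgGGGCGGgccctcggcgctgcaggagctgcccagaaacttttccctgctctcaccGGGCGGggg
The ITGA11 window held none of the 3 motifs, with a GC content of 71.2%. GPC6 had 1 TATAAA and 1 CTTTGA in a window of only 37.6% GC. SDC3 held 5 GC boxes at 83.6% GC, and ITGA2 held 4 at 76.4% GC. Over the 31 promoters of matched members, 54.8% held a GC box, 12.9% a TATAAA and 12.9% a CTTTGA, against 42.6%, 10.7% and 11.2% of the 35116 promoters in the table. A match is a description of letters and says nothing of binding.

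The libraries held 16474856 to 28079048 estimated counts. CPM below are TMM-adjusted, that is, counts relative to library totals corrected for composition, and changes are log2 fold changes ± SE. SOX2, the gene of the sort, was at 1.86 to 5.99 CPM in the SOX2-negative libraries, 418 to 467 CPM in the SOX2-positive libraries and 652 and 676 CPM in control. On the first principal component, which held 46.3% of the variance, SOX2-negative libraries lay at 72.6 to 88.2 and all others at -68.3 to -44.3. On the second, with 16.3%, replicate 2 of the SOX2-negative cells at 100 ng/ml stood at -48, away from the other SOX2-negative libraries (-0.28 to 12.9). Markers of other cell types moved with the gate. Definitive endoderm markers summed to 665.6 to 1350 CPM in SOX2-negative, 15.2 to 27.2 CPM in SOX2-positive and 29.3 to 29.9 CPM in control libraries, and 6 of 6 were called higher in SOX2-negative than in SOX2-positive cells. Lateral and cardiac mesoderm markers summed to 626.7 to 1280 CPM, 10.2 to 39.2 CPM and 63.0 to 74.7 CPM in the same order, with 5 of 6 called higher between the gates. Pluripotency markers summed to 2048 to 3232 CPM in SOX2-negative, 4091 to 4933 CPM in SOX2-positive and 4400 to 4513 CPM in control libraries, with 4 of 6 called lower between the gates. LIN28A made up most of that sum in control, at 3365 and 3619 CPM. Surface ectoderm and amnion markers summed to 157 and 214 CPM in control, 19.7 to 44.3 CPM in SOX2-negative and 6.56 to 43.9 CPM in SOX2-positive libraries. TFAP2A made up most of the control sum, at 155 and 211 CPM, and KRT5 was at 0.214 CPM or less everywhere. ISL1 went the other way, at 17.9 to 36.1 CPM in SOX2-negative libraries and 2.29 and 2.12 CPM in control. The part of these cell mixtures in the results was not tested. In such bulk libraries, fewer cells of a type and less RNA per cell cannot be told apart.

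Per kilobase of exon, a different alpha subunit was the most abundant on each side of the gate. ITGA5 made up 48.6% ± 7.31 of the summed integrin alpha level in SOX2-negative cells (SD, n = 4), against 8.29% ± 2.91 in SOX2-positive cells (n = 4) and 6.17% ± 2.67 in control (n = 2). ITGA6 made up 15.8% ± 5.37 in SOX2-negative cells, against 46.0% ± 8.72 in SOX2-positive cells and 56.3% ± 0.788 in control. The alpha subunits together came to 152 ± 12.6 CPM per kb in SOX2-negative cells, 84.8 ± 11.5 CPM per kb in SOX2-positive cells and 89.9 ± 1.51 CPM per kb in control. The beta subunits changed far less in their make-up. ITGB1 held 67.9% ± 10.6 of the beta level in SOX2-negative cells, 68.6% ± 5.00 in SOX2-positive cells and 68.7% ± 3.76 in control, and ITGB5 held most of the rest. Among glypicans, GPC3 held 20.3% ± 12.1 in SOX2-negative cells and 23.9% ± 8.96 in SOX2-positive cells, against 70.1% ± 3.81 in control, where it was the leading member. GPC4 led in both gates, with 54.6% ± 10.7 in SOX2-negative cells and 51.7% ± 5.97 in SOX2-positive cells, against 18.8% ± 2.44 in control. Among the syndecans, SDC4 and SDC3 were close in SOX2-negative cells (35.4% and 34.2%), while SDC4 led in SOX2-positive cells at 41.8% and the 4 were closer together in control. Shares of a family are bound to each other, so these are descriptions with no test.

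**Figure D1:**
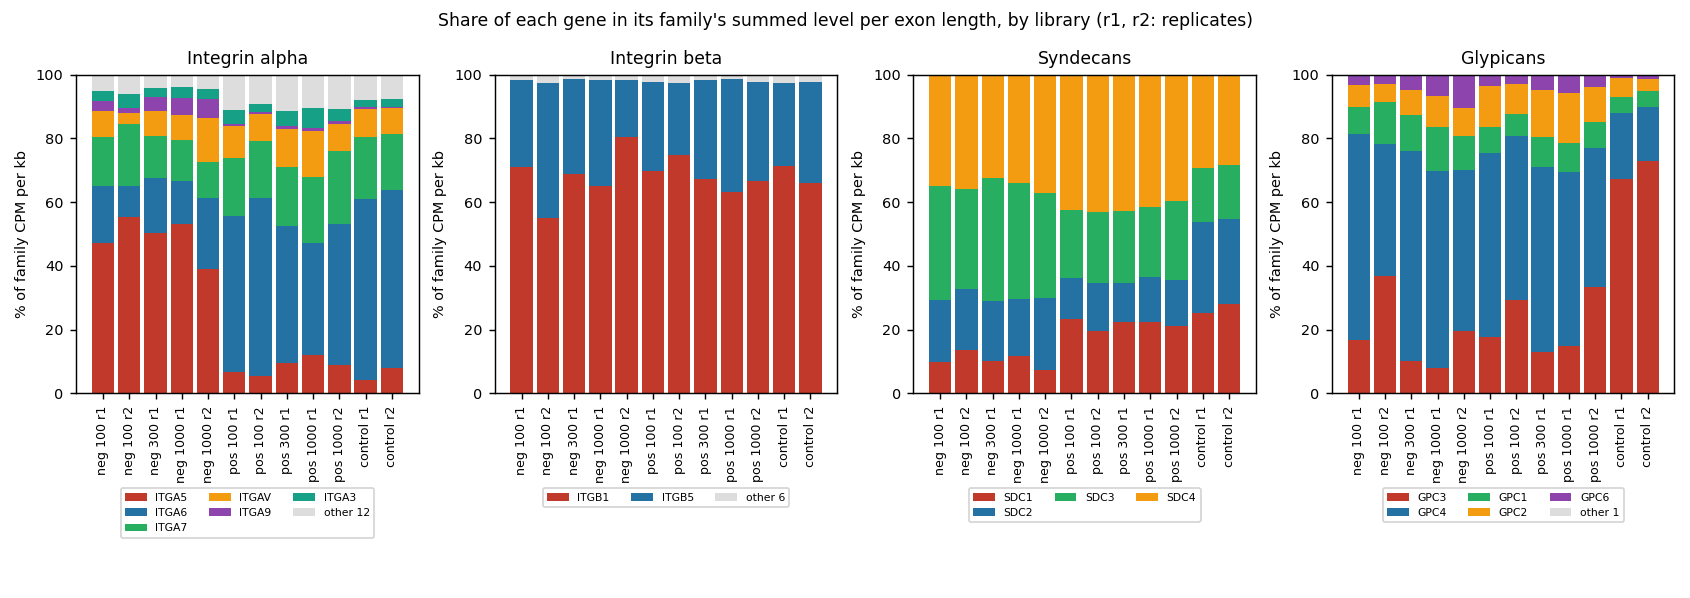
Share of each gene in the summed level of its family (%, y axis, from CPM per kb of exon) in each of the 12 libraries (x axis, SOX2-negative, then SOX2-positive, then control). ITGA5 fills 48.6% of the alpha level on average in SOX2-negative cells and ITGA6 46.0% in SOX2-positive cells, while GPC3 fills 70.1% of the glypican level in control.

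Between the gates, averaged over 100 and 1000 ng/ml, the fibronectin receptor subunit ITGA5 and the subunits ITGA9, ITGA8 and ITGA11 were higher in SOX2-negative cells, with ITGB2 and ITGB7 at low levels. The collagen receptor subunit ITGA2 and ITGA4 were lower. The laminin receptor subunits were split, with ITGB4 and ITGA6 lower and ITGA3 higher. Of the proteoglycans, SDC3, SDC2, GPC1 and GPC6 were higher and SDC1 was lower. Of the 34 members tested, 16 passed an adjusted p of 0.05 in edgeR's quasi-likelihood test, 11 higher and 5 lower, while 24% of all 17047 genes tested passed, 12.9% higher and 11.1% lower. The median log2 fold change of the 34 was 0.44, against 0.0068 over all genes. The libraries of the gates did not overlap for 10 members above and 3 below, where 13.5% and 13.1% of all genes did so. The same test was run on simulated data of 16605 genes, where 64 differed 2-fold, 67 differed 4-fold and 63 differed 8-fold. It called 53.1% of the 2-fold set and 82.1% of the 4-fold set. There were also 13 false calls, to be read against these few changed genes. In the real comparison 24% of genes were called, so the simulated recovery and false calls cannot be carried over to it.

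**Figure D2:**
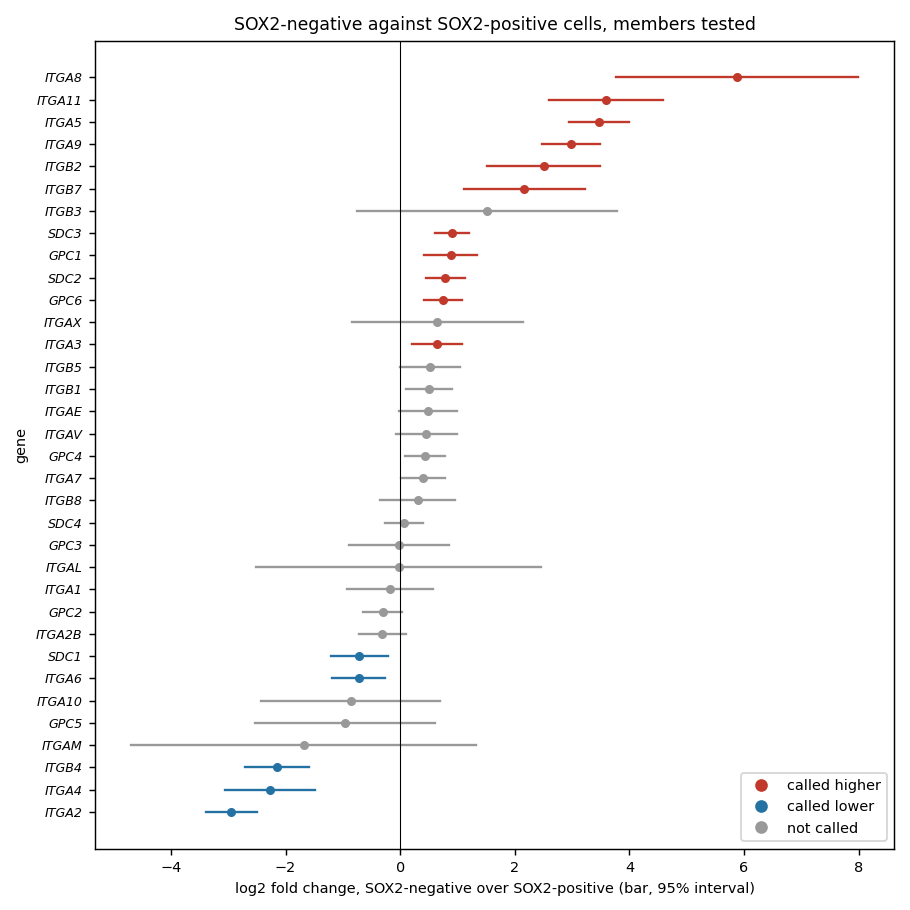
Log2 fold change of SOX2-negative over SOX2-positive cells (x axis) with its 95% interval for the 34 members tested (y axis, in order of the change). Red points are the 11 called higher, blue points the 5 called lower, and grey points the others; ITGA8 and ITGA2 are at the ends.

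ITGA5 (ENSG00000161638, chr12:54395261-54419460) is the alpha subunit of the classical fibronectin receptor. It was at 496 and 649 CPM at 100 ng/ml and 676 and 431 CPM at 1000 ng/ml in SOX2-negative cells, against 40.4 and 42.5 CPM and 67.9 and 56.3 CPM in SOX2-positive cells at the same doses, and 29.6 and 54.3 CPM in control. Every SOX2-negative library lay above every other, and the gates differed by 3.47 ± 0.24 (11.1-fold, edgeR adjusted p = 4.2e-06). Its main ligand gene FN1 averaged 8370 CPM in SOX2-negative cells and 338 CPM in SOX2-positive cells (4.62 ± 0.20, edgeR adjusted p = 4.3e-07).

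ITGA8 also binds RGD ligands and is known from kidney and lung mesenchyme. It was at 2.10 and 2.09 CPM at 100 ng/ml and 4.42 and 5.48 CPM at 1000 ng/ml in SOX2-negative cells. The SOX2-positive libraries at these doses held 1, 0, 0 and 4 counts, and control held 1 and 24 counts. The gates differed by 5.88 ± 0.95 (edgeR adjusted p = 0.0012), a size that rests on these few counts. The other RGD-binding subunits were not called: ITGAV, a partner of several beta subunits, averaged 103 ± 50.6 CPM in SOX2-negative cells and 70.8 ± 12.2 CPM in SOX2-positive cells (0.45, 95% interval -0.08 to 0.98), and without replicate 2 of the SOX2-negative cells at 100 ng/ml its edgeR adjusted p was 0.024 (0.024 to 0.6 over the alternatives). ITGA2B, the platelet integrin subunit, averaged 18.9 ± 6.36 CPM and 22.7 ± 3.69 CPM in the same order. Its partner ITGB3 averaged 0.730 ± 0.372 CPM in SOX2-negative cells and 0.248 ± 0.252 CPM in SOX2-positive cells.

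ITGA9, which pairs with ITGB1 and binds tenascin-C and osteopontin, is at chr3:37452115-37823514. It was at 36.3 and 19.6 CPM at 100 ng/ml and 76.0 and 70.8 CPM at 1000 ng/ml in SOX2-negative cells, against 4.71 and 5.57 CPM and 6.60 and 6.15 CPM in SOX2-positive cells, and 4.68 and 3.11 CPM in control. The gates did not overlap, with a difference of 2.98 ± 0.23 (7.89-fold, edgeR adjusted p = 9.2e-06). ITGA4, its closest relative and a receptor for fibronectin and VCAM1, went the other way. It was at 0.778 and 0.897 CPM at 100 ng/ml and 2.98 and 1.24 CPM at 1000 ng/ml in SOX2-negative cells, against 5.16 and 8.91 CPM and 5.48 and 6.15 CPM in SOX2-positive cells, and 4.12 and 5.57 CPM in control. The highest SOX2-negative library lay below the lowest of the others, and ITGA4 fell by 2.27 ± 0.36 between the gates (edgeR adjusted p = 0.00098).

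The collagen-binding subunits split in the same way. ITGA11, known from mesenchymal cells, was at 6.23 and 4.32 CPM at 100 ng/ml and 9.84 and 7.75 CPM at 1000 ng/ml in SOX2-negative cells, against 0.397 and 0.619 CPM and 0.236 and 0.950 CPM in SOX2-positive cells, and 0.712 and 0.330 CPM in control. No SOX2-negative library came near the others, and the gates differed by 3.59 ± 0.45 (edgeR adjusted p = 0.00021). ITGA2, an epithelial and platelet collagen receptor, was at 1.74 and 1.75 CPM at 100 ng/ml and 1.76 and 1.86 CPM at 1000 ng/ml in SOX2-negative cells, against 16.5 and 15.1 CPM and 11.2 and 12.8 CPM in SOX2-positive cells, and 8.94 and 8.46 CPM in control. It varied little among the SOX2-negative libraries and fell by 2.95 ± 0.20 between the gates (7.74-fold lower, edgeR adjusted p = 4.1e-06). ITGA1, which prefers type IV collagen, averaged 7.34 ± 6.06 CPM in SOX2-negative cells and 7.04 ± 0.986 CPM in SOX2-positive cells and was not called (-0.17, 95% interval -0.93 to 0.58). ITGA10, the cartilage collagen receptor, averaged 0.339 ± 0.187 CPM and 0.609 ± 0.252 CPM in the same order, also without a call.

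Of the laminin-binding subunits, ITGA6 pairs with ITGB4 in hemidesmosomes or with ITGB1. ITGA6 was at 161 and 99.7 CPM at 100 ng/ml and 148 and 213 CPM at 1000 ng/ml in SOX2-negative cells, against 258.5 and 368 CPM and 169 and 242 CPM in SOX2-positive cells, and 338 and 323 CPM in control. The gates overlapped, and ITGA6 fell by 0.73 ± 0.21 (edgeR adjusted p = 0.029). Leaving out replicate 2 of the SOX2-positive cells at either dose, replicate 2 of the SOX2-negative cells at 100 ng/ml or replicate 1 at 1000 ng/ml ended the call of ITGA6, at adjusted p 0.051 to 0.13 (0.00042 to 0.13 over the alternatives). ITGB4 was at 1.92 and 1.80 CPM at 100 ng/ml and 1.33 and 1.77 CPM at 1000 ng/ml in SOX2-negative cells, against 8.23 and 7.30 CPM and 6.54 and 8.24 CPM in SOX2-positive cells, and 4.07 and 4.28 CPM in control. The groups stood apart from each other in all 3, and ITGB4 fell by 2.15 ± 0.25 between the gates (edgeR adjusted p = 0.00014). ITGA3, a receptor for epithelial laminins, was at 43.8 and 66.9 CPM at 100 ng/ml and 52.6 and 44.4 CPM at 1000 ng/ml in SOX2-negative cells, against 32.7 and 26.1 CPM and 45.0 and 29.8 CPM in SOX2-positive cells. Its gates overlapped, as the SOX2-positive library at 45.0 CPM lay above the SOX2-negative libraries at 43.8 and 44.4 CPM. The difference was 0.64 ± 0.19 (edgeR adjusted p = 0.035). The call was lost with only the groups compared (adjusted p = 0.06) and with 3 doses averaged (0.056). Leaving out any of the 8 libraries other than replicate 1 of the SOX2-negative cells at 100 ng/ml and replicate 1 of the SOX2-positive cells at 1000 ng/ml ended the call of ITGA3. ITGA7, known from muscle, averaged 143 ± 35.4 CPM in SOX2-negative cells and 107.5 ± 14.1 CPM in SOX2-positive cells and was not called (0.40 ± 0.17, edgeR adjusted p = 0.12; 0.026 without replicate 1 of the SOX2-negative cells at 100 ng/ml, 0.026 to 0.36 over the alternatives).

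**Figure D3:**
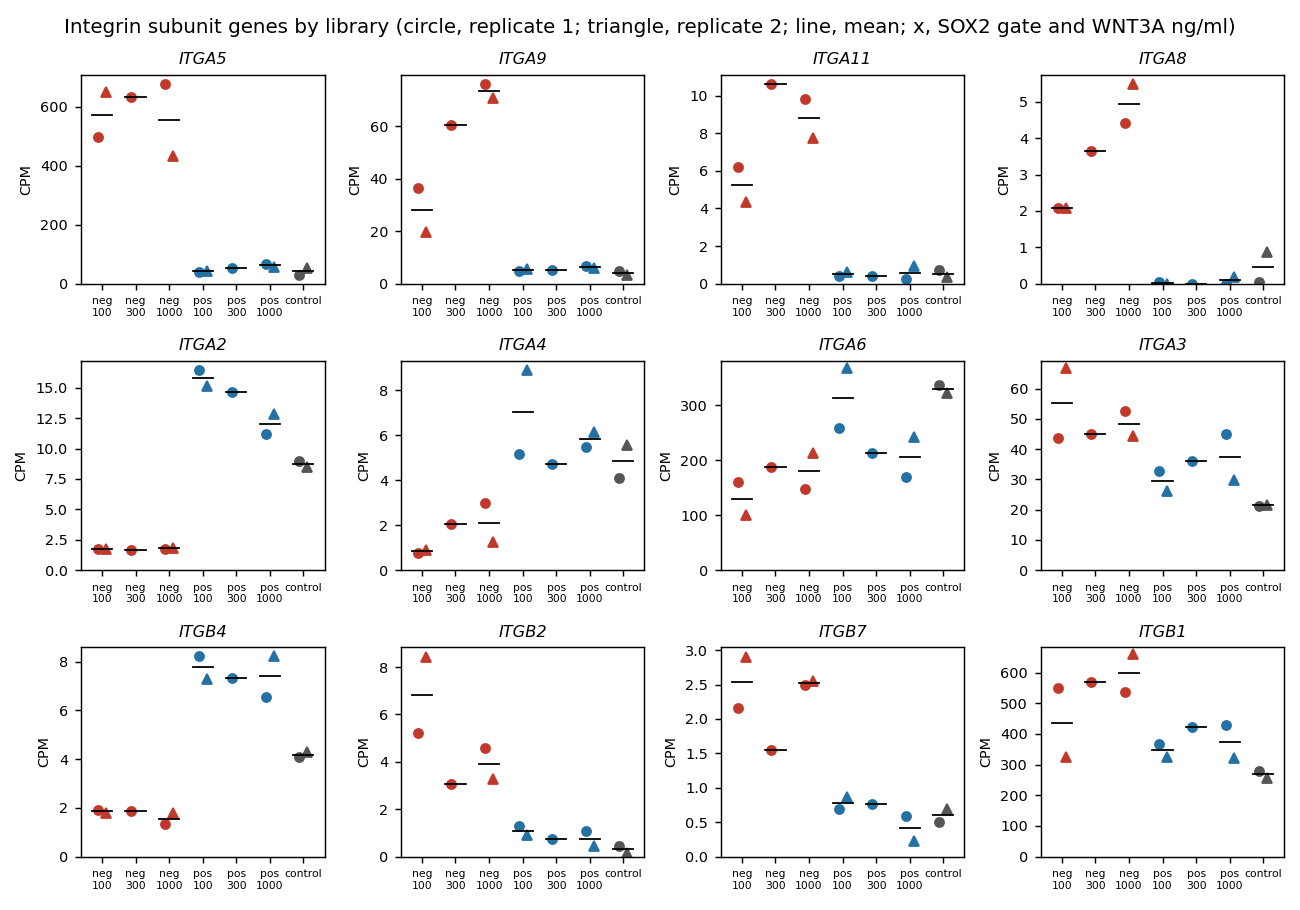
CPM (y axis, from 0) of 12 integrin subunit genes in each library, by SOX2 gate and WNT3A dose in ng/ml (x axis; neg, SOX2-negative; pos, SOX2-positive). Circles and triangles are replicates 1 and 2, lines are group means; ITGA5, ITGA9, ITGA11 and ITGA8 are high in SOX2-negative libraries, ITGA2, ITGA4 and ITGB4 are low there, and ITGB1 overlaps.

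Of the beta subunits, those of leukocyte integrins rose at low levels. ITGB2, the partner of ITGAL, ITGAM, ITGAX and ITGAD, was at 5.21 and 8.42 CPM at 100 ng/ml and 4.58 and 3.26 CPM at 1000 ng/ml in SOX2-negative cells, against 1.29 and 0.907 CPM and 1.06 and 0.453 CPM in SOX2-positive cells, and 0.457 and 0.147 CPM in control. The gates did not overlap, at a difference of 2.51 ± 0.45 (5.68-fold, edgeR adjusted p = 0.0022). ITGB7, the partner of ITGA4 and ITGAE, averaged 2.53 ± 0.308 CPM in SOX2-negative cells and 0.594 ± 0.270 CPM in SOX2-positive cells (SD, n = 4 each), a difference of 2.17 ± 0.48 (edgeR adjusted p = 0.0075). Of their alpha partners, ITGA4 was lower, as given above, ITGAD was not tested, and ITGAE, ITGAX, ITGAM and ITGAL were not called. ITGAE averaged 12.6 ± 5.59 CPM in SOX2-negative cells and 8.72 ± 0.881 CPM in SOX2-positive cells (edgeR adjusted p = 0.16; 0.017 without replicate 1 of the SOX2-negative cells at 100 ng/ml, 0.017 to 0.48 over the alternatives). ITGAX averaged 0.944 ± 0.279 CPM and 0.612 ± 0.395 CPM in the same order, and ITGAM 0.185 ± 0.161 CPM and 0.451 ± 0.409 CPM. Blood and platelet markers summed to 0.107 to 0.692 CPM in SOX2-negative, 0.298 to 0.783 CPM in SOX2-positive and 0 to 0.183 CPM in control libraries, so they were near 0 in all, with PTPRC at 0.359 CPM or less. Endothelial markers summed to 26.1 to 31.5 CPM in SOX2-negative, 14.7 to 27.5 CPM in SOX2-positive and 41.3 to 63.7 CPM in control libraries. TEK made up most of the control sum, at 57.6 and 36.8 CPM. Of these markers, 3 of 5 tested were called higher between the gates, and EMCN was at 0 in every SOX2-negative library. In SOX2-negative cells against control, 3 of the 5 were called higher and 2 lower. Their part in the ITGB2 and ITGB7 results was not tested.

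The most abundant beta subunits, ITGB1 and ITGB5, were not called between the gates by edgeR with the filter on low counts. ITGB1 was at 549 and 325 CPM at 100 ng/ml and 536 and 662 CPM at 1000 ng/ml in SOX2-negative cells, against 368 and 325 CPM and 428 and 322 CPM in SOX2-positive cells, and 278 and 258 CPM in control. Replicate 2 at 100 ng/ml was the low SOX2-negative library. The difference was 0.50 ± 0.18 (95% interval 0.10 to 0.91, edgeR adjusted p = 0.073), and without that library the adjusted p was 0.0054 (0.0054 to 0.23 over the alternatives). ITGB1 was also called with no filter (0.023) and with DESeq2 (0.037). ITGB5, a vitronectin receptor subunit with ITGAV, averaged 237 ± 60.2 CPM in SOX2-negative cells and 170.1 ± 64.0 CPM in SOX2-positive cells (0.52, 95% interval -0.01 to 1.04, edgeR adjusted p = 0.14), and was called with no filter (0.025; 0.025 to 0.52 over the alternatives). ITGB8, which with ITGAV is known to activate latent TGF-beta, averaged 8.18 ± 4.73 CPM and 6.16 ± 1.12 CPM in the same order and was not called.

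Of the 10 proteoglycans, 4 were called higher and 1 lower between the gates, where 12.9% of all genes were called higher and 11.1% lower. SDC3, the syndecan known from the nervous system, was at 199 and 236 CPM at 100 ng/ml and 188 and 178 CPM at 1000 ng/ml in SOX2-negative cells, against 105 and 104 CPM and 105 and 115 CPM in SOX2-positive cells, and 95.7 and 110.4 CPM in control. The SOX2-negative libraries lay above all others (0.90 ± 0.13, 1.86-fold, edgeR adjusted p = 0.00071). SDC2, known from mesenchymal cells and left-right patterning in frogs, was at 69.0 and 91.3 CPM at 100 ng/ml and 59.2 and 77.9 CPM at 1000 ng/ml in SOX2-negative cells, against 40.4 and 44.0 CPM and 43.3 and 43.9 CPM in SOX2-positive cells, and 104 and 110.5 CPM in control. SDC2 was thus lowest in SOX2-positive cells, intermediate in SOX2-negative cells and highest in control, with no overlap (0.79 ± 0.15 between the gates, edgeR adjusted p = 0.0038).

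SDC1, the epithelial syndecan, was at 27.5 and 52.2 CPM at 100 ng/ml and 31.1 and 20.2 CPM at 1000 ng/ml in SOX2-negative cells, against 58.4 and 46.6 CPM and 54.5 and 50.7 CPM in SOX2-positive cells, and 72.1 and 92.3 CPM in control. It fell by 0.72 ± 0.23 between the gates (edgeR adjusted p = 0.041), with overlap through replicate 2 at 100 ng/ml. With the replicate as a block the adjusted p of SDC1 was 0.052, within 0.0014 to 0.13 over the alternatives. Leaving out any SOX2-positive library or replicate 2 of the SOX2-negative cells at 1000 ng/ml also ended the call, at 0.069 to 0.13. SDC4, the syndecan of focal adhesions, averaged 77.3 ± 15.2 CPM in SOX2-negative cells and 73.5 ± 3.20 CPM in SOX2-positive cells (0.07, 95% interval -0.26 to 0.40).

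GPC1, which is known to bind FGF ligands, was at 133.5 and 240.5 CPM at 100 ng/ml and 143 and 92.3 CPM at 1000 ng/ml in SOX2-negative cells, against 77.0 and 79.4 CPM and 80.1 and 85.7 CPM in SOX2-positive cells, and 89.0 and 103.5 CPM in control. The gates did not overlap (0.88 ± 0.21, edgeR adjusted p = 0.011), although the SOX2-negative libraries spread widely. Without replicate 1 of the SOX2-negative cells at 1000 ng/ml the adjusted p of GPC1 was 0.051 (2.7e-05 to 0.051 over the alternatives). GPC6 was at 48.8 and 52.7 CPM at 100 ng/ml and 68.3 and 91.0 CPM at 1000 ng/ml in SOX2-negative cells, against 31.2 and 32.6 CPM and 48.3 and 41.3 CPM in SOX2-positive cells, and 20.7 and 24.7 CPM in control. The lowest SOX2-negative library was just above the highest SOX2-positive one, and both gates were above control (0.75 ± 0.15 between the gates, edgeR adjusted p = 0.0048).

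GPC3, a glypican known to restrain hedgehog signalling in mice, was not called between the gates with the doses averaged. It was at 123 ± 108 CPM in SOX2-negative cells and 103 ± 47.9 CPM in SOX2-positive cells (-0.02, 95% interval -0.90 to 0.86). In both repeats SOX2-negative cells were above SOX2-positive cells at 100 ng/ml (108 and 278 CPM against 69.8 and 140 CPM). At 1000 ng/ml they were below (34.3 and 72.1 CPM against 53.5 and 147 CPM). The difference of the dose effect between the gates was not called in the main model. With no filter on low counts it was -1.79 (edgeR adjusted p = 0.0005). GPC4, which supports FGF and WNT signalling, averaged 541 ± 178 CPM and 393 ± 44.6 CPM in the same order and was not called (0.43 ± 0.16, edgeR adjusted p = 0.075; 0.018 to 0.29 over the alternatives). GPC4 was called with DESeq2 (adjusted p = 0.043), with the 3 doses averaged (0.022) and without replicate 2 of the SOX2-negative cells at 100 ng/ml (0.018) or at 1000 ng/ml (0.038). GPC2, known from developing neurons, averaged 57.4 ± 8.11 CPM in SOX2-negative cells and 70.6 ± 7.02 CPM in SOX2-positive cells (-0.30, 95% interval -0.65 to 0.04).

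**Figure D4:**
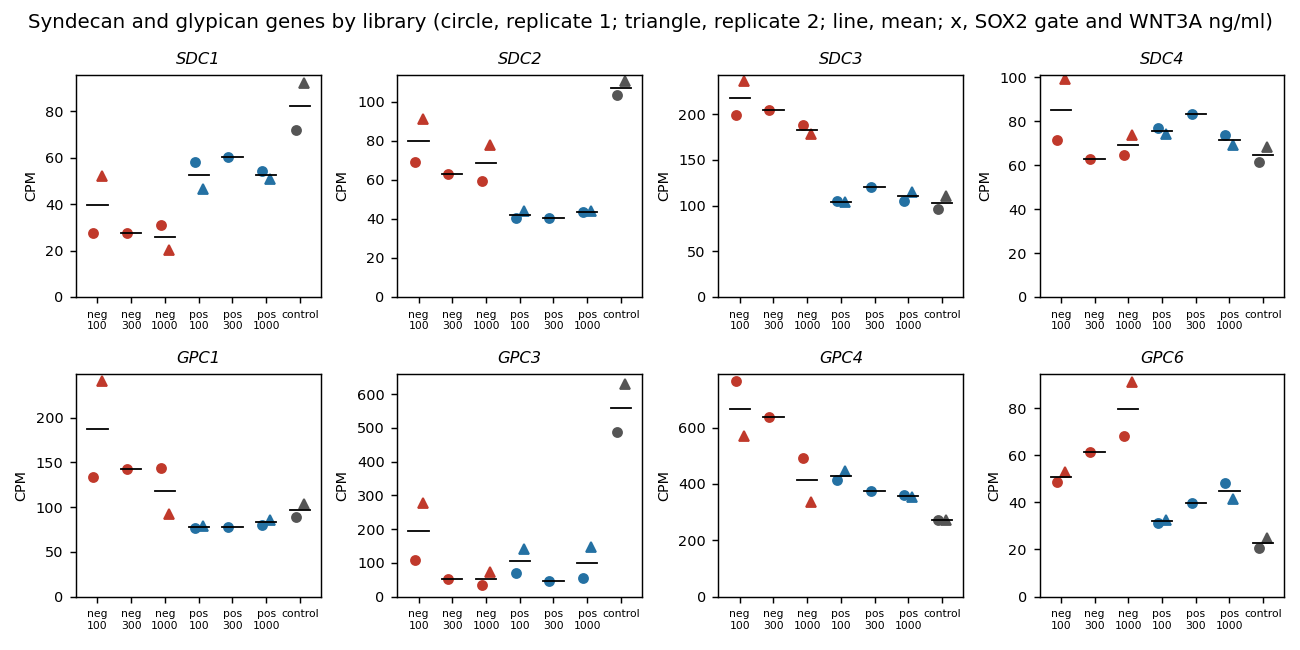
CPM (y axis, from 0) of the 4 syndecans and of GPC1, GPC3, GPC4 and GPC6 in each library, by SOX2 gate and WNT3A dose in ng/ml (x axis; neg, SOX2-negative; pos, SOX2-positive). Circles and triangles are replicates 1 and 2, lines are group means; SDC3 is highest in SOX2-negative libraries, and GPC3 (489 and 629 CPM) and SDC2 (104 and 110.5 CPM) are highest in control.

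The partners of these receptors were counted from lists, to be read against the 12.9% of all genes called higher and 11.1% called lower. Of 20 tested adaptor and focal adhesion genes, 6 were higher and 2 lower in SOX2-negative than in SOX2-positive cells, at a median log2 fold change of 0.34. The higher ones included LIMS2 (2.06 ± 0.32), the kindlin FERMT2 (1.33 ± 0.16), PARVA (1.22 ± 0.19) and KANK2 (1.12 ± 0.15). The epithelial kindlin FERMT1 was lower, at 5.02 ± 1.84 CPM in SOX2-negative cells and 16.5 ± 3.07 CPM in SOX2-positive cells, as was the actin linker VCL, at 189 ± 67.5 CPM and 397 ± 41.4 CPM in the same order. Of 12 matrix ligand genes, 5 were higher and 1 lower (median 0.94): besides FN1, COL4A1 (2.81 ± 0.15), COL4A2 (2.04 ± 0.15), LAMA1 (1.77 ± 0.21) and LAMB1 (0.98 ± 0.18) rose, and SPP1, which encodes osteopontin, fell by 2.85 ± 0.37. Each of these was called at an edgeR adjusted p of 0.0027 or less.

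Genes that build and sulfate heparan sulfate numbered 22, of which 21 were tested, with 9 higher and 1 lower between the gates (median 0.47). The sulfotransferase genes NDST3 (2.16 ± 0.46), HS3ST1 (2.08 ± 0.49), HS3ST3A1 (1.41 ± 0.28) and HS6ST3 (1.18 ± 0.35) were among the higher, and HS3ST5 fell by 2.32 ± 0.27. Of 6 genes that trim the chains or release the core proteins, 3 were higher and 2 lower. MMP14, a membrane metalloproteinase that can shed syndecans (2.21 ± 0.19), the sheddase gene ADAM17 (0.66 ± 0.17) and NOTUM were higher, and the heparanase gene HPSE (-1.34 ± 0.28) and SULF1 were lower. NOTUM, a WNT-inactivating hydrolase also described to cut the glypican anchor, averaged 176 ± 59.8 CPM in SOX2-negative cells and 8.23 ± 3.67 CPM in SOX2-positive cells (4.51 ± 0.30, edgeR adjusted p = 3.4e-06). SULF1, which removes 6-O-sulfates from heparan sulfate, was at 1.44 and 0.128 CPM at 100 ng/ml and 2.66 and 4.49 CPM at 1000 ng/ml in SOX2-negative cells, against 16.1 and 16.5 CPM and 31.8 and 18.1 CPM in SOX2-positive cells, and 0.915 and 2.56 CPM in control. Every SOX2-positive library lay above every SOX2-negative and control library, and SULF1 fell by 3.63 ± 0.52 between the gates (edgeR adjusted p = 0.0005). Of 4 cytoplasmic partners of syndecans, the scaffold gene SDCBP was higher (0.49 ± 0.14) and 3 were not called.

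In SOX2-positive cells, GPC3 and SDC2 were lower than in control, and GPC6 and ITGAX were higher. Of the 34 tested, 4 were called against control, 2 higher and 2 lower, where 7.81% of all genes were called, 4.65% higher and 3.17% lower, so the members' share is near the background. GPC3 (ENSG00000147257, chrX:133535745-133985895) was at 69.8 and 140 CPM at 100 ng/ml and 53.5 and 147 CPM at 1000 ng/ml in SOX2-positive cells, against 489 and 629 CPM in control. No treated library reached the control libraries, and GPC3 fell by 2.44 ± 0.47 (5.44-fold lower, edgeR adjusted p = 0.01). Without control replicate 2 its adjusted p was 0.1 (3.6e-28 to 0.1 over the alternatives). SDC2 fell by 1.32 ± 0.18 (2.50-fold lower, edgeR adjusted p = 0.002), and was the 1 call of the 4 that stood under all 13 alternatives.

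GPC6 was higher in SOX2-positive cells than in control (0.74 ± 0.19, edgeR adjusted p = 0.043). Leaving out any 1 of the 6 libraries compared ended that call, at adjusted p 0.072 to 0.35. ITGAX, a leukocyte subunit, had 6 to 20 counts in the SOX2-positive libraries at 100 and 1000 ng/ml and 0 in both control libraries, at least 9.59-fold higher against a floor of 3 counts over the control group, and leaving out any library but replicate 2 at 1000 ng/ml ended its call (edgeR adjusted p = 0.06 to 0.24). Outside the calls, ITGA5 averaged 51.8 ± 12.9 CPM in SOX2-positive cells and 41.9 ± 17.5 CPM in control (0.27, 95% interval -0.32 to 0.87). ITGA6 averaged 259 ± 82.0 CPM and 331 ± 10.2 CPM in the same order (-0.38, 95% interval -0.94 to 0.18).

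The listed partners in SOX2-positive cells against control are to be read beside the 4.65% of all genes called higher and 3.17% called lower. Among them, 1 adaptor was higher and 1 lower in SOX2-positive cells than in control: TNS1 (1.31 ± 0.30), and FERMT2, at 119 ± 10.99 CPM in SOX2-positive cells and 400.5 CPM in control. Of the matrix ligands 3 were higher and none lower: FN1 (2.15 ± 0.24), SPP1 (1.89 ± 0.45) and COL1A1 (1.48 ± 0.29). Of the heparan sulfate genes none was higher and 2 were lower, HS6ST2 (-2.39 ± 0.26) and NDST1 (-0.59 ± 0.16). SULF1 (3.50 ± 0.67) and MMP14 (0.94 ± 0.23) were higher, as was PRKCA (2.25 ± 0.24), a kinase bound by SDC4. Of the surface ectoderm markers, 2 of 3 tested were lower in SOX2-positive cells than in control, and of the endoderm markers 3 were higher and 2 lower. Of the 6 pluripotency markers 4 were higher and 1 lower: POU5F1 averaged 1438 ± 400 CPM in SOX2-positive cells and 466 ± 51.9 CPM in control, and LIN28A 1790 ± 67.0 CPM in SOX2-positive cells and 3492 ± 180 CPM in control. Their part in the GPC3 and SDC2 results was not tested.

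SOX2-negative cells differed from control in more members. With the same control libraries as the comparison above, 19 of the 34 tested were called, 13 higher and 6 lower, where 22.5% of all genes were called, 12.4% higher and 10.1% lower. ITGA5 rose by 3.75 ± 0.33, ITGA9 by 3.55 ± 0.32, ITGA11 by 3.72 ± 0.61 and ITGB2 by 4.12 ± 0.67, each at an edgeR adjusted p of 0.0014 or less. ITGB1 averaged 518 ± 140 CPM in SOX2-negative cells and 268 ± 14.2 CPM in control (0.93 ± 0.24, edgeR adjusted p = 0.016), and ITGB5 237 ± 60.2 CPM and 121 ± 17.4 CPM (0.97 ± 0.30, edgeR adjusted p = 0.041). ITGA3 (1.28 ± 0.25) and ITGB7 (2.05 ± 0.61) also rose. ITGAX and ITGB3 had no count in control and were at least 14.8-fold and at least 11.4-fold higher against the floor of 3 counts over the group.

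SDC3 (0.95 ± 0.17), GPC4 (0.95 ± 0.20) and GPC6 (1.49 ± 0.20) were the proteoglycans that rose in SOX2-negative cells against control. GPC3 fell by 2.46 ± 0.47 and SDC1 by 1.36 ± 0.26, at edgeR adjusted p = 0.0034 and 0.0039. Of the integrins, ITGA2 fell by 2.29 ± 0.22, ITGA4 by 1.87 ± 0.40, ITGB4 by 1.295 ± 0.29 and ITGA6 by 1.11 ± 0.25. SDC2, called against control in SOX2-positive cells, was at 74.3 ± 13.6 CPM in SOX2-negative cells and 107 ± 4.79 CPM in control (-0.53 ± 0.18, edgeR adjusted p = 0.062). SDC2 was called with the replicate as a block (0.046), with 3 doses averaged (0.032) and with DESeq2 (0.041). ITGA8 had 2.72 ± 0.96 (edgeR adjusted p = 0.067), and was called with the block (0.044), with no filter (0.0017) and with DESeq2 (0.013). The call of ITGB3 was lost with the block (adjusted p = 0.06) and with identifiers kept apart (0.059). That of ITGB5 was lost with identifiers kept apart and with only the groups compared (0.056 each). ITGB4 lost its call with only the groups compared (0.062), and ITGB7 with 3 doses averaged (0.051). Leaving out either control library brought the members called to 9, and ended the calls of GPC4, ITGA3, ITGA6, ITGAX, ITGB1, ITGB3, ITGB4, ITGB5 and ITGB7. Without control replicate 1 the call of SDC3 was also lost, and without control replicate 2 those of ITGA4 and SDC1. Single SOX2-negative libraries also ended the calls of ITGB3 (either at 1000 ng/ml), ITGB5 (replicate 2 at 100 or replicate 1 at 1000 ng/ml) and ITGB7 (all but replicate 1 at 100 ng/ml).

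The listed partners in SOX2-negative cells against control are to be read beside the 12.4% of all genes called higher and 10.1% called lower. Of these partners, 6 of 20 adaptors were higher and 2 lower in SOX2-negative cells than in control. Of 12 matrix ligands 6 were higher and none lower, and of 21 heparan sulfate genes 7 were higher and 2 lower. Of 6 trimming genes 2 were higher, as were 2 of 4 syndecan partners, with none lower in either list.

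No member was called for the dose of WNT3A. Between 1000 and 100 ng/ml none of the 34 members was called in either gate, nor in the difference of the dose effect between the gates, and 0% of all genes were called in each of the 3 comparisons by edgeR. At an unadjusted p under 0.05 there were 1 member in SOX2-positive cells, 11 in SOX2-negative cells and 7 for the difference, and DESeq2 called 0, 2 and 0 members. Over all genes, the unadjusted counts were 293, 3107 and 1349, and DESeq2 called 5, 431 and 19.

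ITGA9 had the lowest p of the members for dose in SOX2-negative cells, with a difference of 1.40 ± 0.30 between 1000 and 100 ng/ml (edgeR adjusted p = 0.2; 0.00037 to 0.7 over the alternatives) and 60.6 CPM in the library at 300 ng/ml. GPC3 was at 108 and 278 CPM at 100 ng/ml, 53.4 CPM at 300 ng/ml and 34.3 and 72.1 CPM at 1000 ng/ml in SOX2-negative cells (-1.86 ± 0.58). With no filter on low counts, GPC3 was called for dose in SOX2-negative cells (edgeR adjusted p = 1.5e-09). GPC4 was at 765.5 and 571 CPM, 639.8 CPM and 491 and 337 CPM at the same doses (-0.69 ± 0.22). ITGAV (1.01 ± 0.34), ITGA1 (1.71 ± 0.50), ITGA4 (1.31 ± 0.52), ITGB8 (1.12 ± 0.42) and GPC6 (0.65 ± 0.21) had positive differences, and ITGA2B (-0.79 ± 0.26), ITGAE (-0.77 ± 0.33) and GPC1 (-0.67 ± 0.29) negative ones, all at edgeR adjusted p = 0.25 to 0.27. Without replicate 1 of the SOX2-negative cells at 100 ng/ml, the dose difference of ITGA9 was 1.92. The 1 library then left at 100 ng/ml was replicate 2, at -48 on the second principal component. Dose calls in that fit rest on this library, whose spread is assumed to be that of the other groups. Over all genes, too, dose calls in SOX2-negative cells were most numerous in that fit.

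In SOX2-positive cells GPC6 was at 31.2 and 32.6 CPM at 100 ng/ml, 39.8 CPM at 300 ng/ml and 48.3 and 41.3 CPM at 1000 ng/ml (0.49 ± 0.22, edgeR adjusted p = 1). For all other members in SOX2-positive cells the unadjusted p was over 0.05. The libraries at 300 ng/ml have no replicate. In SOX2-negative cells 26 of 34 members at 300 ng/ml lay inside the range of the libraries at 100 and 1000 ng/ml, 2 above and 6 below. In SOX2-positive cells 25 lay inside, 6 above and 3 below. The shares of all genes in these places were not counted, so the counts cannot be read as a trait of the members.

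A group of 4 members was under 1 CPM on average in every group. GPC5 was at 0.0536 to 0.769 CPM, ITGAL at 0 to 0.513 CPM and ITGAD at 0 to 0.206 CPM over the 12 libraries, and ITGB6 had 0 counts in all of them. For 17 of the 36 members, GENCODE 29 places an exon of another gene over an exon of the member. Among those called, it is on the opposite strand for ITGA5, ITGA6, ITGA9, ITGB1, ITGB2, ITGB7 and GPC6. For ITGB3, called in SOX2-negative cells against control, it is on the same strand, which no strand setting would separate. The strand setting of the counting is not stated, so reads of the opposite-strand pairs cannot be told apart either.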

How the data were processed

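Poly-A selected RNA from 12 libraries was sequenced as paired ends, per the labels' protocols. The authors deposited 1 table of estimated counts per gene, made with Salmon on GRCh38 per the submitters' processing notes, with no version or annotation release given there. The counts were rounded to whole numbers after rows that share a symbol were summed (37951 identifiers, 35940 symbols, 1034 on more than 1 identifier). Each of the 36 members stands on 1 row. The sample titles gave each library its group and repeat.

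All 12 libraries entered 1 edgeR 4.0.16 model (R 4.3.3) with a mean for each of 7 groups, TMM factors (0.899 to 1.04), filterByExpr (minimum count 10, minimum total 15) and the two-sided quasi-likelihood test. Residual degrees of freedom were 5, and the prior added 5.6. P-values were adjusted by Benjamini-Hochberg over the 17047 genes tested, at a threshold of 0.05. The 95% intervals come from the same test. Comparisons with control share both control libraries. Column totals limit precision, and floors of 3 counts cover counting error only. Levels between genes were compared per kb of GENCODE 29 exon union. The tests were tested on simulated data (16605 genes).

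Same-numbered libraries are the same biological repeat, per the series description. As a check, their departures from the group mean had correlations of -0.06 to 0.22 (10 group pairs, 5 above 0.1), and replicates differed by more than sampling noise (chi-square per degree of freedom 21.9 to 136). The model has no term for the repeat, which was an alternative, as were RLE scaling, no filter, identifiers kept apart, only the groups compared, 3 doses averaged, each library left out, and DESeq2 1.42.0.

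Members and lists were chosen with earlier results of these data known. Every member is named, members called get their values, and listed partners called between the gates are named up to 4 per list and direction. The promoters, motifs and family shares were chosen after values were seen.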

Additional observations from a re-analysis of the deposited data

Results flagged for a closer look

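In 3 members the dose difference had opposite signs in the gates, with the libraries at 1000 ng/ml on 1 side of those at 100 ng/ml in each gate. The share of all genes with this pattern was not counted, so the 3 cannot be read as a trait of the members. ITGA1 differed by 1.71 in SOX2-negative and -0.28 in SOX2-positive cells, a gap of 1.991 on the log2 scale (edgeR adjusted p = 0.53, two-sided test of the gap). ITGA2 differed by 0.05 and -0.40 in the same order, a gap of 0.4457 (edgeR adjusted p = 0.62). SDC3 differed by -0.25 and 0.08, a gap of -0.329 (edgeR adjusted p = 0.59). The gap of ITGA1 passed the test with no filter (adjusted p = 0.041) and without replicate 1 of the SOX2-negative cells at 100 ng/ml (0.024), with a range of 0.024 to 1 over the alternatives. ITGA1 shares exons with PELO, which lies within it on the same strand.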

How the results depend on the processing

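In each comparison, no member called in the main model or in any alternative changed direction. Members called in none of them were not compared for direction. Of the 16 members called between the gates, 12 stayed called in all 15 alternatives, 9 higher and 3 lower, against 1 of 4 for SOX2-positive and 7 of 19 for SOX2-negative cells against control, over 13 alternatives each. How many of all genes called stayed so was not counted, so these counts cannot be read as a trait of the members. Calls with the replicate as a block were 15, 4 and 20 members in these comparisons. Over all genes they were 4106, 1413 and 3894, against 4085, 1332 and 3835 in the main model. The block changed no call of a member besides those of SDC1, ITGA8, SDC2 and ITGB3 given above. It made 1 call over all genes for dose in SOX2-negative cells.

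For SOX2-positive cells against control, members called went to 7 with no filter and 10 with only the groups compared, against 4. All genes called there were 2158 with no filter, 3243 with only the groups compared and 2075 with DESeq2, against 1332. Without a filter on low counts, dose calls over all genes were 107 in SOX2-positive cells, 1551 in SOX2-negative cells and 308 for their difference, with 4 members in SOX2-negative cells and 2 for the difference. DESeq2 called 5, 431 and 19 genes there and 2 members in SOX2-negative cells. Identifiers kept apart gave 1 call in SOX2-positive cells and 1 for the difference, and only the groups compared gave 1 in SOX2-negative cells.

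With each library left out, members called ranged from 13 to 18 between the gates, 1 to 3 for SOX2-positive cells and 9 to 22 for SOX2-negative cells against control, 0 to 0, 0 to 12 and 0 to 5 for the dose in SOX2-positive, in SOX2-negative cells and their difference. All genes called ranged from 2638 to 6835, 250 to 1012, 1749 to 6111, 0 to 0, 0 to 5739 and 0 to 3795. Over all genes, the highest counts between the gates and for dose came without replicate 1 of SOX2-negative cells at 100 ng/ml, the lowest between the gates without replicate 2 of SOX2-positive cells at 100 ng/ml, and the lowest against control without a control library. The cause was not tested. With 2 libraries a group, smaller changes are often missed.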
